A study of Mus musculus with 8 samples.

Results

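The genes described here make, take up, sense and export sterols, and were followed in endothelial cells of the embryonic mouse brain with and without a working copy of Flvcr2, a gene for a membrane transporter. The 34 genes were taken by name from the sterol pathways. All 34 had a row in the count table of 24421 gene symbols. All 34 also passed the filter on low counts that left 13540 genes for testing. They form 5 classes, with 8 genes of the mevalonate branch of synthesis, 11 genes from squalene to cholesterol, 4 genes of uptake and handling, 5 genes of the machinery around the transcription factor SREBP, and 6 export genes linked to the nuclear receptor LXR.

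RNA was sequenced from 8 libraries of brain endothelial cells of C57Bl6 embryos at E14.5 (embryonic day), 4 of them Flvcr2 heterozygous and 4 Flvcr2 knockout. The Flvcr2 mutation brings GFP expression with it, and cells of both genotypes were sorted for GFP together with the endothelial surface protein CD31. The heterozygous controls therefore carry the mutation as well, and only cells that express GFP are represented. Nothing in the labels tells whether each library is a separate embryo. The p-values thus rest on the spread between these libraries, which may in part be technical.

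Cells obtain cholesterol by making it from acetyl units and by taking up lipoproteins. SREBP2, encoded by Srebf2, is held in the membrane of the endoplasmic reticulum by its escort SCAP and by INSIG proteins while sterols are plentiful. When sterols fall it is carried to the Golgi, cut, and switches on the genes of synthesis and uptake. LXR, whose forms are encoded by Nr1h2 and Nr1h3, is bound by oxysterols and switches on genes that export cholesterol and limit its uptake. In the brain, cholesterol is made locally, as the barrier formed by the endothelium keeps out lipoproteins of the blood.

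Total counts ran from 9.11 to 22.6 M in heterozygous and from 12.1 to 35.9 M in knockout libraries. Flvcr2 itself, listed under its older symbol Mfsd7c, was at 427 ± 124 TMM-scaled CPM (read counts relative to library size) in heterozygous and 301 ± 73.6 CPM in knockout libraries (SD, n = 4 each), a difference that was not called (edgeR adjusted p = 0.209). The groups overlapped, and the labels do not say which bases the mutation removes, so this value does not check them. All 10 endothelial markers were tested and 1, Emcn, was called higher in knockout. At an unadjusted p under 0.05 edgeR had 4 of them higher and 1 lower, and DESeq2 called 4 higher and 1 lower. Their summed levels were 6309 to 11046 CPM in heterozygous and 8423 to 11578 CPM in knockout libraries. Markers of other cell types were called in the lower direction alone. Among tested markers edgeR called lower 7 of 10 for neurons, 3 of 8 for radial glia and 2 of 8 for pericytes and smooth muscle. It also called lower 1 of 10 for microglia and macrophages, 2 of 4 for erythroid cells and 0 of 7 for fibroblasts. None of these was called higher. In the same order DESeq2 called 9, 3, 4, 4, 2 and 1 lower. At an unadjusted p under 0.05 edgeR had 10, 3, 5, 6, 3 and 1 lower. The microglia and macrophage markers had a median log2 fold change of -1.29. Mean summed erythroid CPM was 485 ± 175 for heterozygous and 33.9 ± 15.9 for knockout. Mean summed radial glia CPM was 1358 ± 49.9 for heterozygous and 1429 ± 104 for knockout. Of these 8 markers, 6 had negative log2 fold changes, while Vim and Nes had 0.29 and 0.36. The mean log2 CPM of the neuron and radial glia markers, called the neuronal score here, was 5.35 ± 0.83 in heterozygous and 3.51 ± 0.84 in knockout libraries. With pericyte, microglia and erythroid markers added, the other-cell score was 5.19 ± 0.38 and 3.20 ± 0.73. Heterozygous 2 and knockout 1 had the most counts of the Y-linked Ddx3y (331 and 914) and almost none of Xist (0 and 1), while the other libraries had 0 to 56 and 229 to 1135.

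Genes of sterol synthesis fell in knockout cells or did not pass the test, and the machinery and export classes each held values of both signs. Of the 19 synthesis genes 8 fell and 0 rose (edgeR quasi-likelihood test, adjusted p under 0.05; 11 lower and 0 higher at an unadjusted p under 0.05; DESeq2 called 8 lower and 0 higher). Across all 13540 tested genes, 4.02% were called lower, 5.53% higher and 9.55% in either direction. The median log2 fold change of knockout against heterozygous was -0.65 over the 19 synthesis genes, with 18 negative values, against -0.03 over all tested genes. Of the 4 uptake and handling genes, 0 were called (0 at an unadjusted p under 0.05; DESeq2 called 0), with a median of 0.17. Of the 5 machinery genes 2 fell and 0 rose (1 higher at an unadjusted p under 0.05; DESeq2 called 1 higher), with a median of 0.09. Of the 6 export genes 2 fell and 0 rose (2 higher at an unadjusted p under 0.05; DESeq2 called 2 higher), with a median of -0.45 and a span from -1.47 to 0.80. The groups of libraries did not overlap for 13 of the 34 genes, all lower in knockout, where 7.9% of all tested genes were apart and lower and 9.7% apart and higher. In bulk RNA, fewer cells that carry a transcript and less of that transcript per cell cannot be told apart.

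**Figure D1:**
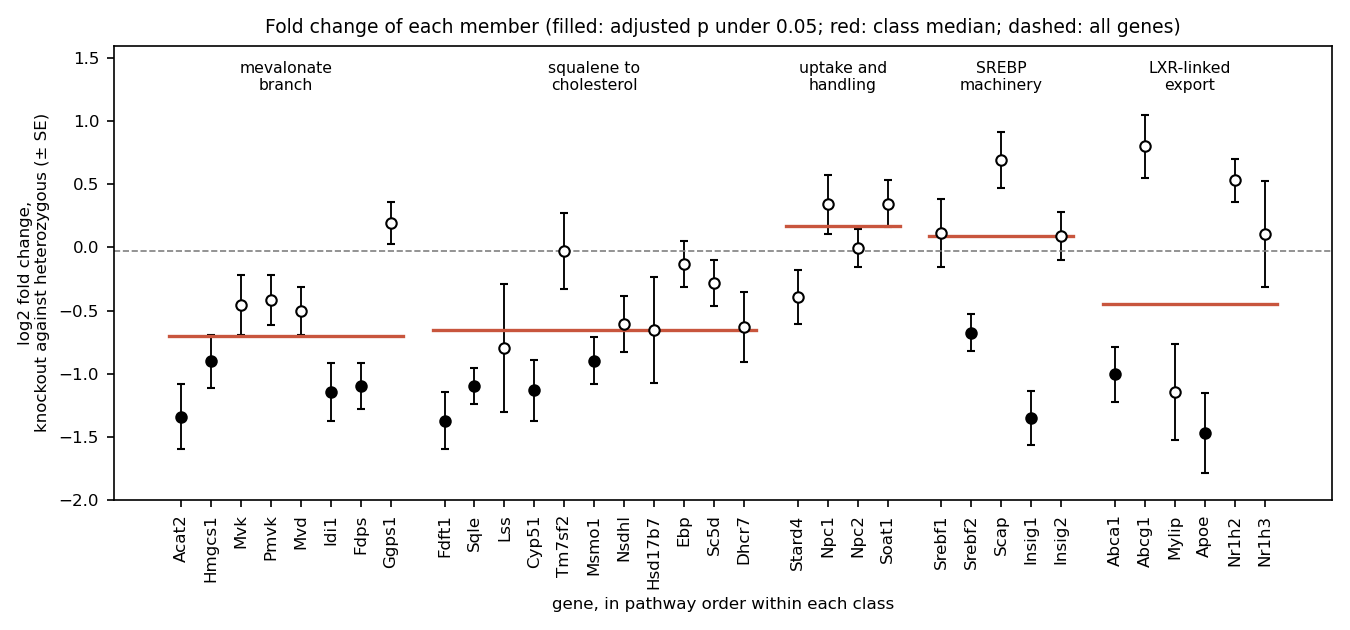
Log2 fold change of each of the 34 genes, knockout against heterozygous, with its standard error (vertical axis), in pathway order within each class (horizontal axis). Filled points passed an edgeR adjusted p under 0.05, red lines are class medians, and the dashed line is the median of all tested genes; the 12 filled points all lie below 0, and the export genes run from -1.47 for Apoe to 0.80 for Abcg1.

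The mevalonate branch turns acetyl units into farnesyl diphosphate, from which sterols and other isoprenoids are made. Of its 8 genes, Acat2, Hmgcs1, Idi1 and Fdps fell. Acat2 (chr17:12943042-12960725, GRCm38), the cytosolic thiolase that joins acetyl units, was at 89.0, 42.5, 52.3 and 43.5 CPM in heterozygous libraries 1 to 4 and at 22.5, 26.1, 24.0 and 17.3 CPM in knockout libraries 1 to 4. The genotypes did not overlap, and heterozygous 1 was the highest library by a wide margin. The fall was 2.53-fold (log2 fold change -1.34 ± 0.26, SE; edgeR adjusted p = 0.0115), and the call held in all 8 leave-one-out fits, in each of which a single library was dropped.

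Hmgcs1 (chr13:119690351-119708260), the synthase that makes HMG-CoA, was at 129.7, 80.9, 111 and 84.7 CPM in heterozygous libraries 1 to 4 and at 48.2, 53.8, 72.5 and 42.7 CPM in knockout libraries 1 to 4. Its groups did not overlap, though knockout 3 came within a few CPM of heterozygous 2. It fell 1.87-fold (log2 fold change -0.90 ± 0.21; edgeR adjusted p = 0.0256). This was the least stable of the 12 calls: it was lost without heterozygous 1 or 3 or knockout 1, 2 or 4, with edgeR adjusted p from 0.0515 to 0.0827 and log2 fold changes from -0.90 to -0.77 in those 5 fits.

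Idi1 (chr13:8885606-8892396) encodes the isomerase that makes dimethylallyl diphosphate. Its levels were 50.04, 44.2, 50.5 and 40.0 CPM in heterozygous libraries 1 to 4 and 17.2, 16.8, 31.3 and 18.3 CPM in knockout libraries 1 to 4. Knockout 3 stood above the other knockout libraries but below all heterozygous ones. Idi1 fell 2.21-fold (log2 fold change -1.14 ± 0.23; edgeR adjusted p = 0.0136) and lost its call without knockout 1 (edgeR adjusted p = 0.0506). Fdps (chr3:89093588-89101967), the farnesyl diphosphate synthase, was at 215, 156, 154 and 179.9 CPM in heterozygous libraries 1 to 4 and at 65.7, 103, 88.6 and 72.3 CPM in knockout libraries 1 to 4. Every knockout library was lower than every heterozygous one. Fdps fell 2.14-fold (log2 fold change -1.10 ± 0.18; edgeR adjusted p = 0.00573), and held its call in all 8 leave-one-out fits. GENCODE places 26.7% of its exon bases within exons of the gene model Gm43738 on the same strand, whose reads cannot be told apart there.

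The kinases Mvk and Pmvk and the decarboxylase Mvd, which act in sequence between the HMG-CoA steps and the isomerase, had log2 fold changes of -0.46 ± 0.24, -0.42 ± 0.20 and -0.50 ± 0.19 and did not pass the test. Mvk was at 61.0, 45.3, 64.5 and 63.6 CPM in heterozygous libraries 1 to 4 and at 37.6, 62.2, 28.02 and 43.3 CPM in knockout libraries 1 to 4. Pmvk was at 66.6, 53.3, 50.7 and 60.7 CPM and at 36.6, 55.3, 49.5 and 31.9 CPM in the same order. For both kinases knockout 2 lay among the heterozygous libraries. Ggps1, whose product leads from farnesyl diphosphate toward protein prenylation and away from sterols, was the only synthesis gene with a positive value (0.19 ± 0.17; edgeR adjusted p = 0.515).

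Between squalene and cholesterol, Fdft1, Sqle, Cyp51 and Msmo1 fell, and the other 7 genes did not pass the test. Fdft1 (chr14:63145150-63181687), the squalene synthase that commits farnesyl diphosphate to sterols, was at 191, 115, 125 and 104 CPM in heterozygous libraries 1 to 4 and at 52.2, 57.7, 60.4 and 36.5 CPM in knockout libraries 1 to 4. The genotypes were well apart, with the highest knockout library at 60.4 CPM and the lowest heterozygous one at 104 CPM. Fdft1 fell 2.59-fold (log2 fold change -1.37 ± 0.23; edgeR adjusted p = 0.00584). GENCODE places 18.3% of its exon bases opposite exons of Ctsb, which was at 1475 and 1186 CPM in heterozygous and knockout libraries, and the strand setting of the counting is not given, so reads of the shared bases cannot be assigned to either gene with certainty.

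Sqle (chr15:59315092-59331193) encodes squalene epoxidase, a rate-limiting enzyme of the sterol branch. It was at 120.4, 125, 96.3 and 115 CPM in heterozygous libraries 1 to 4 and at 48.0, 57.6, 52.3 and 55.7 CPM in knockout libraries 1 to 4. Of the 34 genes it had the smallest standard error, and the knockout libraries lay close together, from 48.0 to 57.6 CPM. Sqle fell 2.14-fold (log2 fold change -1.10 ± 0.14; edgeR adjusted p = 0.00196).

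Cyp51 (chr5:4080674-4104697), the lanosterol demethylase, was at 65.8, 50.7, 64.5 and 45.9 CPM in heterozygous libraries 1 to 4 and at 26.5, 17.7, 37.2 and 21.9 CPM in knockout libraries 1 to 4. Msmo1 (chr8:64718123-64733578), the methylsterol oxidase of the following steps, was at 95.1, 119, 82.8 and 125 CPM and at 53.5, 65.0, 64.6 and 43.8 CPM in the same order. Neither gene's groups overlapped. Cyp51 fell 2.19-fold (log2 fold change -1.13 ± 0.24; edgeR adjusted p = 0.0172) and Msmo1 1.86-fold (log2 fold change -0.90 ± 0.19; edgeR adjusted p = 0.0155). Without knockout 1 both calls were lost (edgeR adjusted p = 0.0522 and 0.0558), and that of Cyp51 also without knockout 4 (0.0558).

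The 7 uncalled genes of this branch had log2 fold changes from -0.80 to -0.03. Ebp, the sterol isomerase, was at 61.5, 75.4, 69.9 and 80.4 CPM in heterozygous libraries 1 to 4 and at 65.1, 85.2, 50.5 and 61.8 CPM in knockout libraries 1 to 4, and Dhcr7, a reductase of the final steps, at 57.4, 64.7, 104 and 57.5 CPM and at 60.2, 47.5, 25.2 and 50.1 CPM. Both overlapped between genotypes. Their log2 fold changes were -0.13 ± 0.18 and -0.63 ± 0.28. Nsdhl, Hsd17b7 and Sc5d, which remove methyl groups and place double bonds, had log2 fold changes of -0.61 ± 0.22, -0.65 ± 0.42 and -0.28 ± 0.18. Lss, which closes the sterol rings, and the reductase Tm7sf2 had -0.80 ± 0.51 and -0.03 ± 0.30. Lss, Hsd17b7 and Tm7sf2 had the lowest levels of the synthesis genes per kb of exon, at 1.08, 1.74 and 1.94 CPM per kb in heterozygous libraries, and a change of moderate size in Lss or Hsd17b7 was not detectable with such errors.

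**Figure D2:**
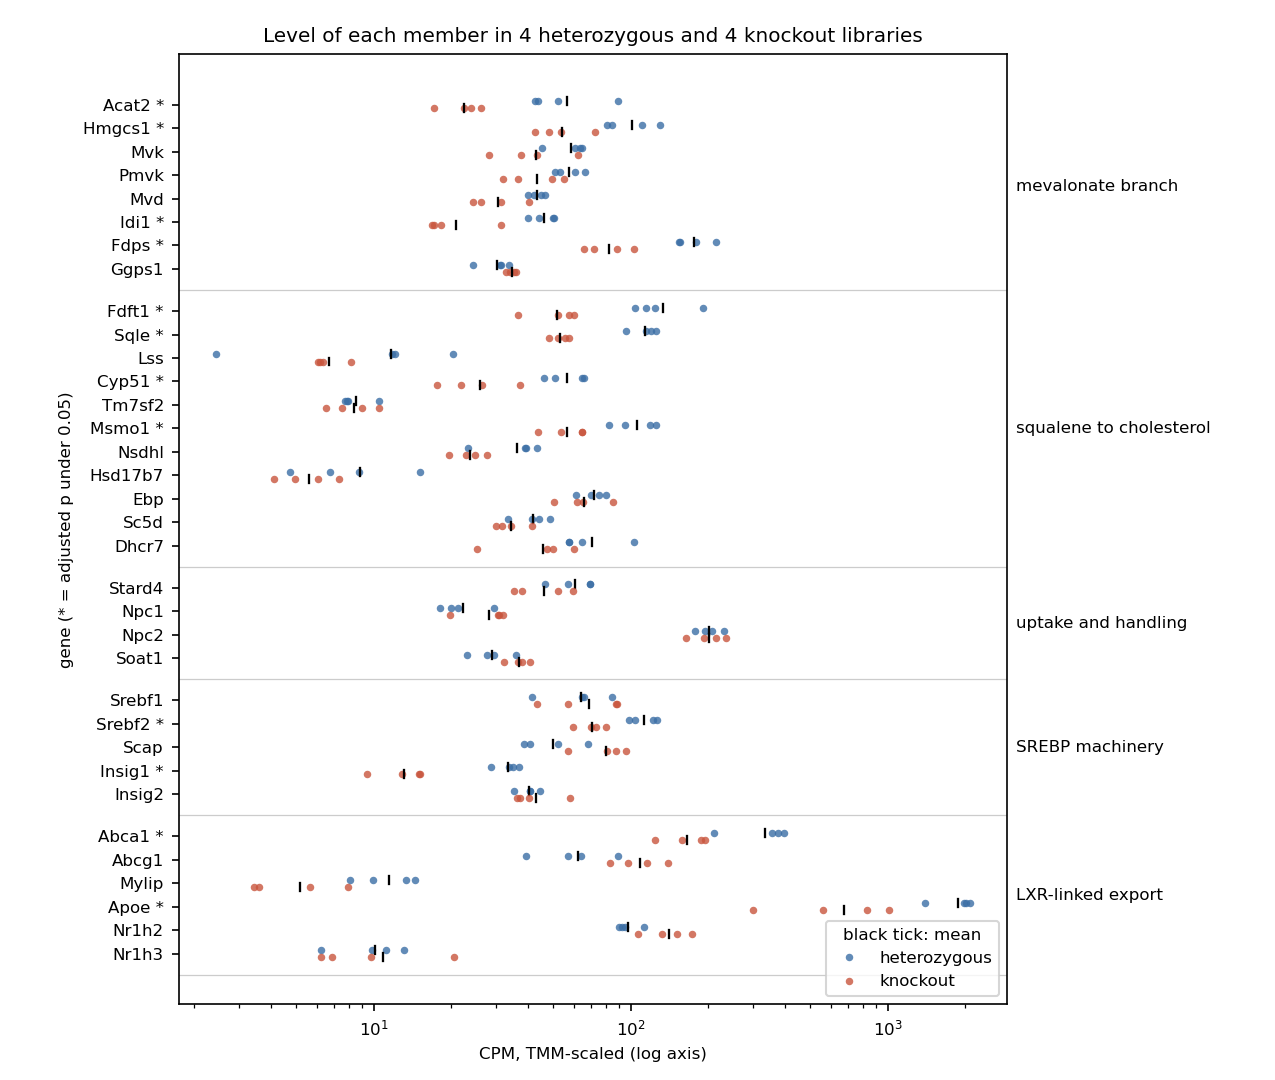
CPM of each of the 34 genes (vertical axis, by class) on a log axis, with 1 point for each of the 4 heterozygous (blue) and 4 knockout (red) libraries and a black tick at each mean. Genes marked with an asterisk passed an edgeR adjusted p under 0.05; for Sqle the heterozygous libraries lie between 96.3 and 125 CPM and the knockout libraries between 48.0 and 57.6 CPM, while Npc2 and Ebp overlap.

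Per kb of annotated exon, the only scale on which levels are compared between genes here, Fdps was the most abundant synthesis transcript in heterozygous libraries at 41.9 CPM per kb. Pmvk, Fdft1 and Ebp followed at 33.7, 31.6 and 31.1 CPM per kb. In knockout libraries Ebp led at 28.4 CPM per kb, with Pmvk at 25.3 and Fdps at 19.6 CPM per kb. Exon lengths join all annotated isoforms, so genes with long minor isoforms, such as Lss, come out low.

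Promoter windows from RefSeq (assembly GRCm38.p6, from 250 bases before to 50 after each start) were found for 28 of the 34 genes, 16 of them synthesis genes. Fdps, Fdft1, Sqle, Stard4, Npc1 and Abcg1 were not matched. Windows were searched on both strands for the letters TCACNCCAC of the sterol regulatory element, to which SREBP binds, for CCAAT, the box of the factor NF-Y that acts together with SREBP, and for the spaced direct repeat bound by LXR with its partner RXR. A match is a description of the letters only. Forms of these elements with other letters or another spacing were not searched, so a window without a match can still hold one. The 4 windows that follow are shown for these reasons. Hmgcs1 alone of the matched genes holds the letters TCACNCCAC, and Msmo1 and Insig1 hold CCAAT without them. Abca1 is the export gene that fell with the smallest p. Msmo1 and Insig1 were added after the matches were seen. Each is written 5′ to 3′ along the gene's strand, with matches of any of the 3 motifs in capitals (a CCAAT on the other strand reads ATTGG).
Hmgcs1, chr13:119690101-119690400, plus strand: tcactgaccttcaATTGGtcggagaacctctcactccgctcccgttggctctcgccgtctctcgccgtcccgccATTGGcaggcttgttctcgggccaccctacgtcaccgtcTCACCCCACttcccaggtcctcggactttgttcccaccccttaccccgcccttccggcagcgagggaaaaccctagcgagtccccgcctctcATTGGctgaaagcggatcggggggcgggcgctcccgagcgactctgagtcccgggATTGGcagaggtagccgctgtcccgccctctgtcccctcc
Msmo1, chr8:64733529-64733828, minus strand: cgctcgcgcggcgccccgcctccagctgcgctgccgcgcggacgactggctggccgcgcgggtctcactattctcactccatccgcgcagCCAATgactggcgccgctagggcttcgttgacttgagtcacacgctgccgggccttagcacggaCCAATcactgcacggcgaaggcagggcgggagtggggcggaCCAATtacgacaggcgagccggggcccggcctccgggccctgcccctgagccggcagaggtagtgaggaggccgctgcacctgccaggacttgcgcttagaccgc
Insig1, chr5:28071162-28071461, plus strand: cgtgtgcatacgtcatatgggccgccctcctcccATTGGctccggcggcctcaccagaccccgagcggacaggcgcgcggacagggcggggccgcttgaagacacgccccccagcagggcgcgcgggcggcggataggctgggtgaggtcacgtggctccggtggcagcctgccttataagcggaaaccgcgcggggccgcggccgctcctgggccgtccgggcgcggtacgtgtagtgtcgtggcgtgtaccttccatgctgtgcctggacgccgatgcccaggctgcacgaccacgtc
Abca1, chr4:53159846-53160145, minus strand: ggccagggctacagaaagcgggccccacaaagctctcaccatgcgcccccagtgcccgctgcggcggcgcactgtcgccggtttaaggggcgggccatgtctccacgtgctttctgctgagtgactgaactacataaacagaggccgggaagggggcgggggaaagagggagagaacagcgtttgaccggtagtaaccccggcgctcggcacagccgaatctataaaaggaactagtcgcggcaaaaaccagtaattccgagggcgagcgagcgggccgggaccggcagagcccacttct

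The letters TCACNCCAC were found in Hmgcs1 only, 137 to 129 bases before its start, where 1.24% of all 32851 windows hold them. CCAAT was found in 22 of the 28 matched genes and in 15 of the 16 matched synthesis genes, while 41.1% of all 27025 genes with a window hold it in at least 1 window. It was in 6 of 9 matched genes that fell and in 16 of 19 that were not called, so its presence did not follow the calls. Of the 5 matched export genes, Mylip alone held it. Msmo1 holds 3 CCAAT matches on its own strand. The spaced LXR repeat was in none of the 28 genes and in 0.0457% of all windows.

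The 4 genes of uptake and handling, none of which encodes a lipoprotein receptor, did not pass the test. Npc2, which takes cholesterol from the lysosome's lumen to its membrane, was at 207.5, 195, 178 and 230.5 CPM in heterozygous libraries 1 to 4 and at 193.5, 235, 215 and 164 CPM in knockout libraries 1 to 4 (log2 fold change -0.01 ± 0.15). The genotypes were interleaved. Stard4, a carrier of sterols in the cytosol and a known SREBP2 target, was at 46.4, 57.0, 69.4 and 69.4 CPM and at 35.2, 59.6, 37.8 and 52.2 CPM (log2 fold change -0.39 ± 0.21; edgeR adjusted p = 0.275). Npc1, the membrane partner of Npc2, and Soat1, which esterifies cholesterol for storage, had positive log2 fold changes of 0.34 ± 0.23 and 0.35 ± 0.18 (edgeR adjusted p = 0.392 and 0.268).

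Within the SREBP machinery, Srebf2 and Insig1 fell. Insig1 (chr5:28071412-28078662), which retains SCAP in the endoplasmic reticulum and is itself switched on by SREBP, was at 36.9, 28.6, 34.9 and 33.5 CPM in heterozygous libraries 1 to 4 and at 15.2, 9.41, 14.98 and 12.9 CPM in knockout libraries 1 to 4. The highest knockout library, at 15.2 CPM, was far below the lowest heterozygous one, at 28.6 CPM. Insig1 fell 2.55-fold (log2 fold change -1.35 ± 0.22; edgeR adjusted p = 0.00500), and held its call in all 8 leave-one-out fits. Srebf2 (chr15:82147269-82205379) was at 104.5, 122, 127 and 98.7 CPM and at 70.0, 73.4, 80.0 and 59.9 CPM, also without overlap. It fell 1.597-fold (log2 fold change -0.68 ± 0.15; edgeR adjusted p = 0.0198). Dropping heterozygous 2 or 3 or knockout 1 or 4 ended the call (edgeR adjusted p from 0.0538 to 0.0678).

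The paralogs of these genes did not pass the test. Insig2, which acts like Insig1 but is not driven by SREBP2 in the same way, had a log2 fold change of 0.09 ± 0.19, and Srebf1, which favours fatty acid genes and is also an LXR target, 0.11 ± 0.27. Both values turned to -0.02 and -0.01 with library size alone as the scaling. Srebf1 was at 41.2, 66.2, 84.4 and 64.5 CPM in heterozygous libraries 1 to 4 and at 88.4, 43.1, 57.1 and 88.0 CPM in knockout libraries 1 to 4. Scap was at 40.6, 68.3, 52.1 and 38.4 CPM and at 95.7, 57.1, 81.1 and 88.0 CPM in the same order. Only knockout 2 of the Scap values lay within the heterozygous range. GENCODE places 13.2% of its exon bases opposite those of 5830462I19Rik. Its log2 fold change of 0.69 ± 0.22 did not pass in edgeR (adjusted p = 0.0785), but did in DESeq2 (0.0333) and limma voom (0.0470). It also passed in edgeR without heterozygous 2 or knockout 2 (0.0446 and 0.0427).

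Ratios of counts of related genes within a library do not depend on scaling; the pairs were chosen after the values were seen and are given without a test. The Insig1 to Insig2 ratio was 0.913, 0.813, 0.783 and 0.823 in heterozygous libraries and 0.408, 0.261, 0.258 and 0.319 in knockout libraries 1 to 4. The genotypes were far apart, with means of 0.833 ± 0.056 and 0.311 ± 0.070 (SD, n = 4 each). The Srebf1 to Srebf2 ratio was 0.395, 0.541, 0.664 and 0.654 in heterozygous libraries and 1.26, 0.587, 0.714 and 1.47 in knockout libraries, where knockout 2 lay inside the heterozygous range.

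**Figure D3:**
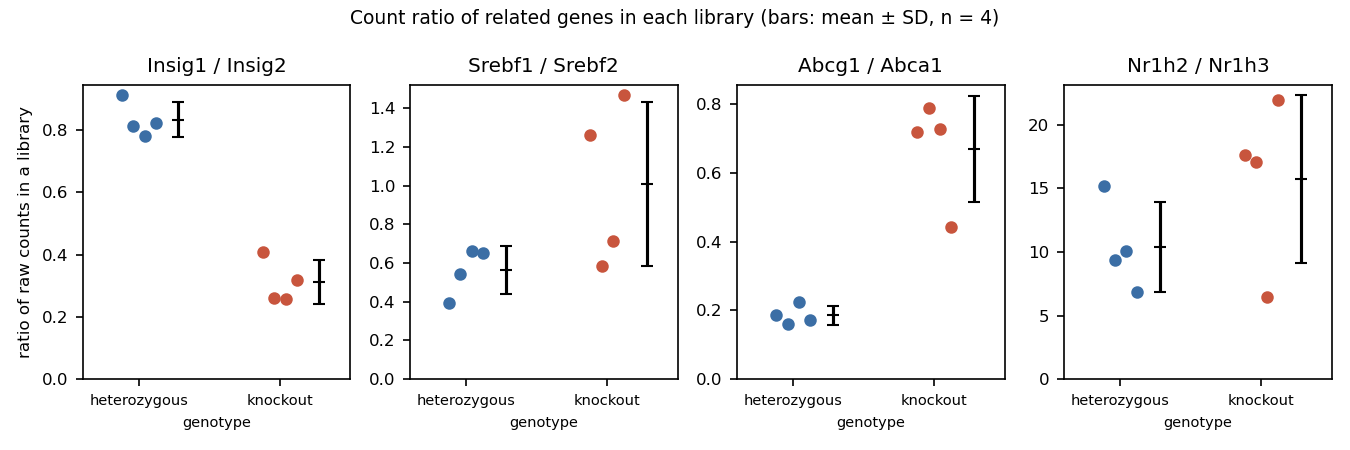
Ratio of raw counts of 4 pairs of related genes in each library (vertical axes, each from 0), for 4 heterozygous (blue) and 4 knockout (red) libraries, with mean and SD beside the points. The Insig1 to Insig2 ratio is lower and the Abcg1 to Abca1 ratio higher in every knockout library than in every heterozygous one; the other pairs overlap.

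Of the export genes, Abca1 and Apoe fell. Abca1 (chr4:53030789-53159988), the transporter that loads cholesterol onto lipid-poor apolipoproteins, was at 211, 355, 397 and 374 CPM in heterozygous libraries 1 to 4 and at 195, 124, 159 and 188 CPM in knockout libraries 1 to 4. Heterozygous 1 was far below the other heterozygous libraries and came close to knockout 1, without overlap. Abca1 fell 2.01-fold (log2 fold change -1.01 ± 0.22; edgeR adjusted p = 0.0178) and held its call in all 8 leave-one-out fits.

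Abcg1, which passes cholesterol to larger lipoprotein particles, was not called, and its fold change was positive. It was at 39.03, 57.3, 89.3 and 64.4 CPM in heterozygous libraries 1 to 4 and at 140.1, 98.0, 116 and 83.0 CPM in knockout libraries 1 to 4, and only knockout 4 fell short of heterozygous 3. Its log2 fold change of 0.80 ± 0.25 did not pass in edgeR (adjusted p = 0.0693; 0.0357 without heterozygous 3), and passed in DESeq2 (adjusted p = 0.0195). The Abcg1 to Abca1 count ratio was 0.185, 0.162, 0.225 and 0.172 in heterozygous libraries and 0.720, 0.788, 0.728 and 0.442 in knockout libraries 1 to 4. Every knockout ratio lay above every heterozygous one, with means of 0.186 ± 0.028 and 0.669 ± 0.155.

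The LXR genes themselves did not pass in edgeR. Nr1h2, encoding the widely expressed LXR beta, was at 95.4, 92.7, 112 and 89.8 CPM in heterozygous libraries 1 to 4 and at 173, 107, 132 and 151.5 CPM in knockout libraries 1 to 4. Knockout 2 lay below heterozygous 3, and the other knockout libraries lay above all heterozygous ones. The log2 fold change was 0.53 ± 0.17 (edgeR adjusted p = 0.0740; 0.0316 without knockout 2; DESeq2 adjusted p = 0.0325). Nr1h3, encoding LXR alpha, averaged 10.1 ± 2.87 and 10.9 ± 6.66 CPM, with a log2 fold change of 0.11 ± 0.42. Per kb of exon Nr1h2 was at 29.1 and Nr1h3 at 4.01 CPM in heterozygous libraries. Mylip, the ubiquitin ligase that marks lipoprotein receptors for degradation, was at 8.07, 13.4, 9.95 and 14.54 CPM in heterozygous libraries 1 to 4 and at 5.67, 3.57, 3.42 and 7.96 CPM in knockout libraries 1 to 4. The groups did not overlap, and the log2 fold change of -1.15 ± 0.38 passed in DESeq2 (adjusted p = 0.0297) but not in edgeR (adjusted p = 0.0861).

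Apoe (chr7:19696244-19701310), the apolipoprotein that carries cholesterol between cells of the brain, was the most abundant of the 34 transcripts, at 875 CPM per kb of exon in heterozygous libraries. It was at 2086, 1986, 1396 and 2020 CPM in heterozygous libraries 1 to 4 and at 558.5, 832, 1009 and 298.5 CPM in knockout libraries 1 to 4. Heterozygous 3 was the lowest heterozygous library, and all knockout libraries were lower still. Apoe fell 2.78-fold (log2 fold change -1.47 ± 0.32; edgeR adjusted p = 0.0181), and its call was lost without knockout 1 (edgeR adjusted p = 0.0639). Microglia and macrophages are rich in Apoe, and the summed level of 10 of their markers was 1306, 1223, 473 and 1378 CPM in heterozygous libraries 1 to 4 and 505, 332, 815 and 125 CPM in knockout libraries 1 to 4. Heterozygous 3 was thus the lowest heterozygous library for both, knockout 4 the lowest and knockout 3 the highest knockout library for both. Other ranks differed. Knockout 1 had more of these markers than knockout 2 (505 against 332 CPM) but less Apoe (558.5 against 832 CPM). Knockout 3 had more of them than heterozygous 3 (815 against 473 CPM) but less Apoe (1009 against 1396 CPM). The part of these cells in the fall of Apoe was not tested beyond the fits with a score given further on.

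**Figure D4:**
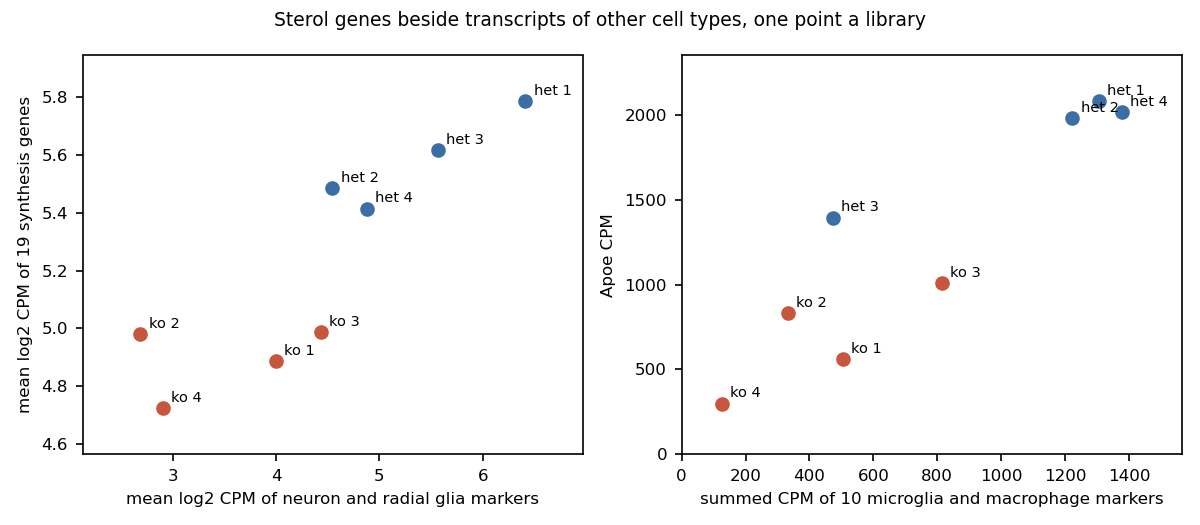
Left, mean log2 CPM of the 19 synthesis genes against the neuronal score (mean log2 CPM of neuron and radial glia markers) in each library; right, Apoe CPM against the summed CPM of 10 microglia and macrophage markers. Heterozygous libraries (blue, het) and knockout libraries (red, ko) separate on both vertical axes. In the right panel heterozygous 3 and knockout 4 are the lowest of their genotype on both axes, while knockout 3 lies to the right of heterozygous 3 and below it.

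Synthesis genes were also read beside transcripts of neurons and glia. The mean log2 CPM of the 19 synthesis genes was 5.79, 5.49, 5.62 and 5.41 in heterozygous libraries and 4.89, 4.98, 4.99 and 4.72 in knockout libraries 1 to 4. The neuronal score was 6.41, 4.54, 5.57 and 4.87 in heterozygous libraries and 3.996, 2.69, 4.43 and 2.91 in knockout libraries 1 to 4. Heterozygous 1 and 3 were the highest of their genotype on both measures, and knockout 3 was the highest knockout library on both. Other ranks differed: knockout 2 had the lowest neuronal score and a synthesis mean close to that of knockout 3, and heterozygous 4 had the lowest heterozygous synthesis mean but not the lowest neuronal score. The uptake class had mean log2 CPM of 5.72 ± 0.17 and 5.79 ± 0.15, the machinery 5.75 ± 0.15 and 5.52 ± 0.23, and the export class 6.42 ± 0.25 and 6.01 ± 0.23 in heterozygous and knockout libraries.

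With the neuronal score or the other-cell score as a covariate no member was called (12 without a covariate; at an unadjusted p under 0.05, 13 and 6 members of 34). All 12 genes that had fallen kept a negative log2 fold change in both fits, while the median standard error of the members widened from 0.22 to 0.32 and 0.44. The genes then differed in how far their values moved. Sqle had -1.10 ± 0.14 without a covariate, -1.23 ± 0.23 once the neuronal score was added and -1.20 ± 0.34 once the other-cell score was. Abca1 had -1.01 ± 0.22, -1.20 ± 0.35 and -1.35 ± 0.48, and Fdps -1.10 ± 0.18, -1.02 ± 0.31 and -0.84 ± 0.43. Msmo1 had -0.90 ± 0.19, -1.03 ± 0.30 and -0.63 ± 0.43, and Srebf2 -0.68 ± 0.15, -0.60 ± 0.25 and -0.51 ± 0.34. These 5 moved by less than the standard error in the fit with the score. Hmgcs1 went from -0.90 ± 0.21 to -0.31 ± 0.27 and -0.09 ± 0.39, Cyp51 from -1.13 ± 0.24 to -0.44 ± 0.28 and -0.23 ± 0.42, and Apoe from -1.47 ± 0.32 to -1.21 ± 0.48 and -0.34 ± 0.60. Acat2, Idi1 and Fdft1 moved to -0.50, -0.41 and -0.50 with the other-cell score, and Insig1 to -0.83. The other-cell score was 4.91 to 5.72 in heterozygous libraries and 2.45 to 4.08 in knockout libraries. The genotypes did not overlap on either score. For the neuronal score the lowest heterozygous library was at 4.54 and the highest knockout library at 4.43. The part of either score and that of genotype in the members' values therefore cannot be told apart.

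**Figure D5:**
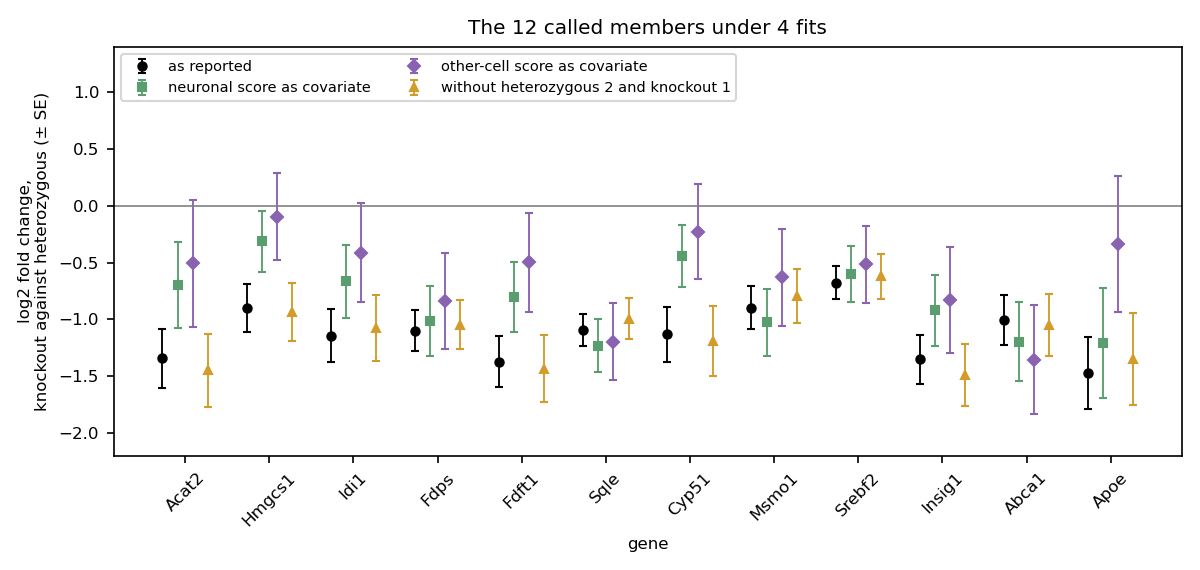
Log2 fold change, knockout against heterozygous, with standard error (vertical axis) of the 12 genes that fell, under 4 fits: without a covariate, with the neuronal score, with the other-cell score, and without heterozygous 2 and knockout 1. Sqle and Abca1 stay near or below -1 in every fit, while Hmgcs1, Cyp51 and Apoe move toward 0 with the other-cell score.

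The number of members called lower was 12 with all libraries and 6 to 12 over the leave-one-out fits. The 6 were seen without knockout 1, where Hmgcs1, Idi1, Cyp51, Msmo1, Srebf2 and Apoe were lost. With heterozygous 2 and knockout 1 dropped, the pair richest in Ddx3y, it was 4 (Fdps, Fdft1, Sqle and Insig1), and without heterozygous 1 and knockout 2 it was 8. Acat2, Fdps, Fdft1, Sqle, Insig1 and Abca1 held their calls in all 8 leave-one-out fits.

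Of 55 other genes of sterol metabolism 48 were tested, of which 4 (8.33%) fell and 3 (6.25%) rose, where 4.02% of all tested genes were called lower and 5.53% higher. Their median log2 fold change was 0.10. Among 11 tested genes for SREBP processing and turnover, Syvn1 and Erlin1, which act in degradation at the endoplasmic reticulum, rose 1.75-fold and 2.08-fold (edgeR adjusted p = 0.0317 and 0.0459). These calls held in 2 and 1 of 8 leave-one-out fits, with adjusted p of up to 0.0823 and 0.113, and Erlin1, whose groups overlapped, had 0.0752 when only library sizes were used for scaling. Nus1, a subunit of the enzyme that makes dolichol from farnesyl diphosphate, was at 32.8, 35.6, 34.7 and 38.95 CPM in heterozygous libraries 1 to 4 and at 95.9, 66.0, 87.8 and 78.6 CPM in knockout libraries 1 to 4. It rose 2.31-fold without overlap (edgeR adjusted p = 0.00217).

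Of 13 tested lipoprotein receptors and sterol carriers, the scavenging receptor gene Lrp1 fell 3.04-fold, its means being 22.3 ± 6.70 CPM and 7.33 ± 3.65 CPM (edgeR adjusted p = 0.0325). Its call held in 2 of 8 leave-one-out fits (adjusted p of up to 0.0887), and its log2 fold change was 0.02 with the other-cell score. Of 17 tested partners and targets of LXR and oxysterol enzymes, Pltp and Ncoa1 fell. Pltp, the phospholipid transfer protein and an LXR target, was at 826, 1071, 1181 and 1105 CPM in heterozygous libraries 1 to 4 and at 333, 550.5, 396 and 329.8 CPM in knockout libraries 1 to 4. It fell 2.60-fold without overlap (edgeR adjusted p = 0.00299) and held its call in all 8 leave-one-out fits. The coactivator gene Ncoa1 fell 3.29-fold, its means being 16.5 ± 5.54 CPM and 4.99 ± 1.34 CPM (edgeR adjusted p = 0.0152), and its call was lost without knockout 4 (adjusted p = 0.0524). None of the related genes named here was called with either score as a covariate.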

How the data were processed

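RNA from 2000 to 5000 sorted cells per library was made into cDNA with SMART-Seq v4 and into libraries with Nextera XT, per the labels' protocols. The submitters' processing notes name TopHat2 0.7, Cufflinks 2.2.1 and mm10. Which tool counted reads, and with what strand setting, is not stated in the labels or the table. The authors deposited 1 table of raw read counts per gene symbol, with 24421 rows, of which 6388 were at 0 in every library.

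From these counts, edgeR 4.0.16 (R 4.3.3) was run with filterByExpr (minimum count 10, minimum total 15), TMM scaling and robust quasi-likelihood F-tests of knockout against heterozygous, with Benjamini-Hochberg adjustment over 13540 tested genes and a threshold of 0.05. The tested genes held 99.9% of counts. CPM values use TMM-scaled library sizes, and class scores are means of log2 CPM with a prior count of 2. Standard errors are the log2 fold change divided by the square root of F. Alternatives were DESeq2 1.42.0, limma 3.58.1 (voom), other scalings and filters, a replicate block, marker scores as covariates, and fits without 1 or 2 libraries. Tested on simulated data of the same 13540 genes, edgeR recovered 33% of 100 genes changed 2-fold and 70% of 100 genes changed 4-fold, with 6 false calls among 109. No pair of libraries agreed within sampling noise (chi-square per degree of freedom of at least 28.9).

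The members, gene lists and markers were chosen with earlier results of these data known. All 34 members were named, with the value in every library for genes that were called and for the 2 uncalled genes of each class with the highest mean CPM. Of the related genes, those called were named, except 1 that is counted but not reported here. Values of Mylip in every library were added after they were seen. Exon lengths and overlaps come from GENCODE M21, and coordinates are on GRCm38. March6 and Faxdc2 of the related genes had no matched row, and Gramd1c, Abca8a, Cyp27a1, Cyp46a1 and Lcat did not pass the filter on low counts.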

Additional observations from a re-analysis of the deposited data

Results flagged for a closer look

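Among 68 groups of 4 libraries (34 genes in each genotype), 6 had a library whose gap to the nearest other, divided by the range of the group, was above Dixon's critical value for a group of that size. Chance gives this in about 1 of 20 groups. For Idi1, knockout 3 at 31.3 CPM stood above the next library at 18.3 CPM (ratio 0.899). For Lss, knockout 3 at 8.20 CPM stood above the next at 6.34 CPM (0.886). For Tm7sf2, heterozygous 3 at 10.5 CPM stood above the next at 7.98 CPM (0.920). For Dhcr7, heterozygous 3 at 104 CPM stood above the next at 64.7 CPM (0.843). For Npc1, knockout 4 at 19.8 CPM lay under the next at 30.4 CPM (0.885). For Apoe, heterozygous 3 at 1396 CPM lay under the next at 1986 CPM (0.856).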

How the results depend on the processing

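The 12 genes that fell kept a negative log2 fold change in each alternative run, and the same 12 were called under every scaling, filter and tool tried without a covariate. Over these genes and all alternatives, 202 results kept their call, 50 lost it and 0 changed direction. DESeq2 called 2221 genes against 1293 in edgeR, and 5 export genes against 2. With the neuronal score as covariate, 39 genes, 0 synthesis and 0 export genes were called; with the other-cell score, 0, 0 and 0 (1076 genes at an unadjusted p under 0.05). Without heterozygous 2 and knockout 1 the numbers were 300, 3 and 0, and without heterozygous 1 and knockout 2 they were 842, 5 and 1. Leaving out 1 library gave 579 (without knockout 1) to 1347 genes (625 without knockout 4), 4 to 9 synthesis genes and 1 to 3 export genes, the lowest again without knockout 1; the cause was not tested. With library size alone the share of calls that were higher was 42.6%, and with upper-quartile scaling 48.0%, against 57.9%; library size moved the median of all genes by -0.12 on the log2 scale. With no replicate pairing in the labels beyond the number, and correlations of same-numbered libraries of 0.06, 0.21, -0.05 and 0.02, a fit with a replicate block called 868 genes, 8 synthesis and 2 export genes, and lost the calls of Syvn1 and Erlin1.

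Signs turned only for uncalled genes near 0 or with wide errors. The log2 fold change was -0.0065 for Srebf1 and -0.0246 for Insig2 with library size alone, 0.0232 for Npc2 with no filter, -0.13 for Nr1h3 in voom and -0.0086 with the replicate block. With the neuronal score it was -0.0154 for Ggps1, 0.13 for Lss, 0.0012 for Tm7sf2, 0.44 for Hsd17b7 and -0.0414 for Srebf1. With the other-cell score it was 0.0189 for Pmvk, -0.0646 for Ggps1, 0.0607 for Lss, 0.0231 for Tm7sf2, 0.61 for Hsd17b7, 0.0331 for Sc5d, 0.25 for Npc2, -0.0211 for Soat1 and -0.47 for Srebf1. Without heterozygous 2 and knockout 1 it was 0.0087 for Npc2 and -0.0051 for Srebf1. Leaving out 1 library gave -0.083 to 0.0831 for Npc2, -0.0512 to 0.28 for Srebf1, -0.39 to 0.30 for Nr1h3, -0.15 to 0.0938 for Tm7sf2 and -0.0748 to 0.17 for Insig2.

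In simulated data 33% of genes changed 2-fold were recovered. The changed genes were drawn at random from all tested genes, and 109 genes were called there against 1293 in the data. The share recovered among these members can therefore differ from 33%. An uncalled gene is not shown to be the same in both genotypes.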
